A study of Mus musculus with 12 samples.

Results

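The response of the wild-type mouse jejunum to a diet with added quercetin was measured in 6 of the 12 pools of the series: 3 pools from wild-type mice on the quercetin diet and 3 from wild-type mice on the control diet. The mice were C57BL/6 males aged 6 to 8 weeks, and each pool combined RNA from 3 mice. All mice ate the same soya-free powdered diet, RM3 (E), for 14 days. The quercetin groups then received that diet with 6.2 g of quercetin per kg, or 7 mg per mouse, and were killed after 24 h. The other 6 pools, 3 on each diet, came from POR-null mice, which lack cytochrome P450 reductase, the electron donor of microsomal cytochromes P450. The labels do not name the cells in which that deletion acts, nor whether a pool was 1 cage (mice were housed 3 to a cage). The jejunum was taken as the middle part of the small intestine by length, and the scraped epithelial layer was used, so the boundaries with duodenum and ileum were set by length and not by markers.

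Quercetin is a flavonol of onions, apples and tea. In the small intestine its glucosides are split by brush-border lactase, and the freed quercetin is joined to glucuronate, sulfate or methyl groups in the enterocyte and partly pumped back into the lumen. In cultured cells it is known as a ligand of the aryl hydrocarbon receptor (AhR), which induces Cyp1a1, and as an agent that acts on the antioxidant factor NRF2 and on the heat shock response. The jejunum also lies on a gradient: genes of iron, folate and fat uptake are used mainly in its proximal part, and genes of bile acid uptake mainly toward the ileum. The comparison asks which jejunal transcripts differed within a day of eating the compound.

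RNA was measured on Affymetrix 430A arrays, and the values below are log2 intensities as deposited, so that a difference of 1 is a doubling. Array medians lay between 5.94 and 6.01. Pairs of wild-type pools correlated with r of 0.991 to 0.994 within a diet and of 0.989 to 0.995 between diets. The median SD between pools of 1 diet was 0.1079. Fabp2, the enterocyte fatty acid carrier that marks absorptive cells, was far above the array median in all 6 wild-type pools. It was at 13.48 to 13.57 on control and at 13.64 to 13.72 on quercetin. Of 9 absorptive enterocyte markers measured, 4 were above 0 and 5 below in the diet difference, against 56.8% of all genes above 0. Their median was -0.04. Fabp6, the ileal bile acid carrier, ranged from 5.83 to 12.18, as described below. In RNA of a scraped layer, fewer cells of a type and less RNA per cell cannot be told apart.

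Few probe sets passed the adjusted test between the diets in wild-type mice. Of 22626 probe sets, 3 (0.0133%) passed an adjusted p of 0.05 in limma's moderated test: Ckb, which fell (1 of all probe sets, 0.00442%), and Osr2 and the gene model Gm9222, which rose (2 of all, 0.00884%). At an unadjusted p under 0.05 there were 1972 probe sets (8.72%), of which 1031 (4.56% of all tested, 52.3% of those 1972) were higher on quercetin. That split depended on the scaling, since 29.6% were higher after each array was centred on its median. Differences were small: over 12393 genes the median absolute difference was 0.08. The signed differences had a median of 0.02, and their 1st and 99th percentiles were -0.43 and 0.33. Only 11 genes differed by 1 or more in either direction.

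Ckb encodes the brain-type cytosolic creatine kinase, which buffers ATP and is abundant in the intestinal brush border. It measured 9.55, 10.12 and 9.62 in control pools 1, 2 and 3, and 8.92, 8.73 and 8.69 in quercetin pools 1, 2 and 3. The groups did not overlap, with 0.63 between the nearest pools. The difference was -0.98 ± 0.12 (SE, 3 pools a group), a 1.98-fold lower level, with an adjusted p of 0.0116. Its mitochondrial relative Ckmt1 was lower by a smaller amount (-0.30 ± 0.09, adjusted p = 0.364), also without overlap. Gamt, the last enzyme of creatine synthesis, differed by 0.21 ± 0.10 with overlapping pools. The promoter of Ckb, chr12:111672289-111672588 on the minus strand (GRCm38.p6, RefSeq), is shown because Ckb was the only probe set that passed the test downward. Capitals mark 1 TATA box (TATAAA, in 13.6% of all 32851 promoters of that length) and 2 CCAAT boxes (CCAAT, in 37.4%), each searched on both strands.
Ckb: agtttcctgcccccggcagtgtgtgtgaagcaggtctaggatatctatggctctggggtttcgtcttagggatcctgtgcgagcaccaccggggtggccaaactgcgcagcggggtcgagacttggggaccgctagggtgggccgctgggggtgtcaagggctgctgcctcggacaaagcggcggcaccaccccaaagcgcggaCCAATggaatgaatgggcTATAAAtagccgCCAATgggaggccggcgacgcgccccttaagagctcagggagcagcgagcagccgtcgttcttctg
The matches are letters only, and nothing in these arrays measured what binds them.

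Osr2 encodes a zinc-finger transcription factor of the odd-skipped family. It stood at 7.04, 7.13 and 7.09 in the control pools and at 7.77, 7.83 and 7.93 in the quercetin pools. All quercetin pools lay above all control pools, and the pools of each diet were close together. The difference was 0.76 ± 0.11 (1.69-fold, adjusted p = 0.0322). Gm9222 is a gene model whose probe set carries the suffix by which the manufacturer marks probes that can hybridise to other transcripts, so which RNA it reads is uncertain. It was at 5.41, 5.50 and 5.48 on control and at 6.20, 6.54 and 6.50 on quercetin, a difference of 0.95 ± 0.12 (1.93-fold, adjusted p = 0.0116). These 3 calls rested on particular pools, while the differences moved little when single wild-type pools were left out: from -1.09 to -0.81 for Ckb, 0.89 to 1.06 for Gm9222 and 0.71 to 0.79 for Osr2. Without quercetin pool 2, or without quercetin pool 3, no probe set passed (1499 and 1292 had an unadjusted p under 0.05 in limma), and without control pool 2 only Ckb did. Osr2 was also lost without control pool 1 (adjusted p = 0.0555) and without control pool 3 (0.0517), and so kept its call only without quercetin pool 1. Without control pool 1, control pool 3 or quercetin pool 1, 11, 10 and 23 probe sets passed.

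**Figure D1:**
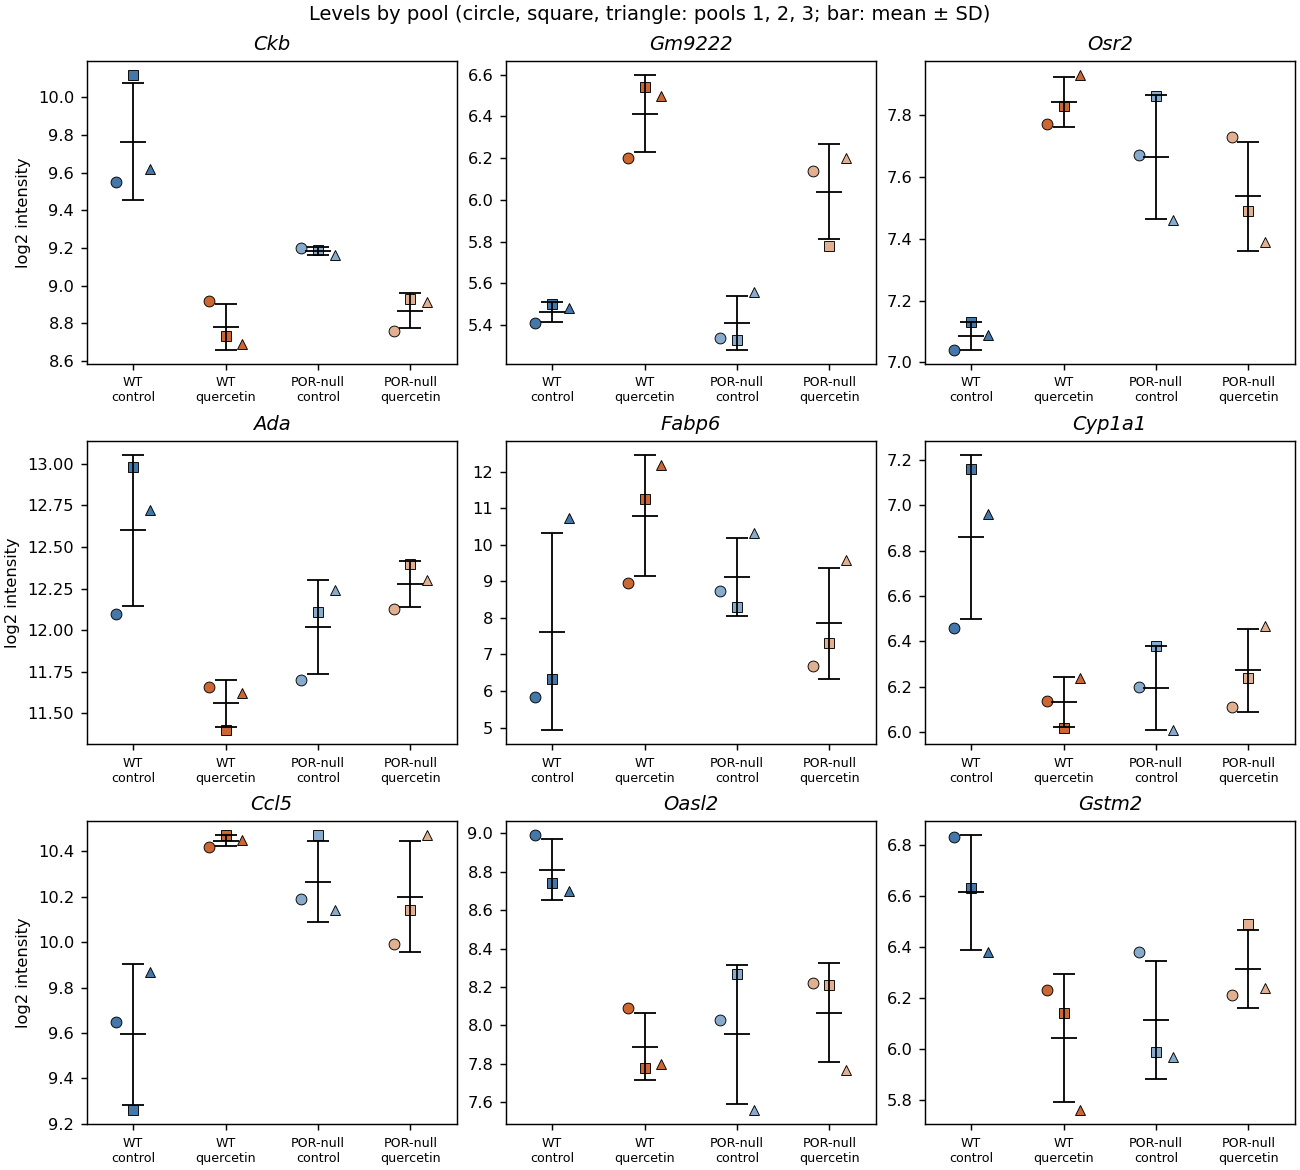
Log2 intensity of 9 genes in each of the 12 pools (y axis, a separate scale for each gene), by genotype and diet (x axis). Circles, squares and triangles are pools 1, 2 and 3, and bars are the mean ± SD of 3 pools. In wild-type mice the control and quercetin pools are apart in every panel except Fabp6, where control pool 3, at 10.72, lies above quercetin pool 1, at 8.96.

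Ada did not pass the adjusted test. It encodes adenosine deaminase, an enzyme of purine breakdown known for very high levels in the proximal small intestine. Control pools were at 12.10, 12.98 and 12.72, and quercetin pools at 11.66, 11.40 and 11.62. The groups were 0.44 apart, and the difference was -1.04 ± 0.18 (2.06-fold, adjusted p = 0.12). Other purine genes differed by less. Gda, guanine deaminase, was at -0.52 ± 0.20, Xdh, xanthine dehydrogenase, at -0.30 ± 0.11, and Adk, adenosine kinase, which returns adenosine to AMP, at 0.38 ± 0.11. The other 3 probe sets of Adk were at 0.12, 0.15 and -0.03, and the mean over its probe sets was 0.16. Guk1, guanylate kinase, was at -0.63 ± 0.12 (adjusted p = 0.191), without overlap. Entpd5, a nucleoside diphosphatase of the endoplasmic reticulum, was at -0.40 ± 0.08 (adjusted p = 0.191), also without overlap. Of 11 measured purine genes, 1 was higher and 3 were lower at an unadjusted p under 0.05, against 4.36% higher and 4.37% lower among all genes.

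Further down the list of smallest p were genes of the lysosome. Ctsl, the protease cathepsin L, was at 7.25, 7.24 and 6.92 on control and at 6.50, 6.29 and 6.44 on quercetin (-0.73 ± 0.14, adjusted p = 0.191). Ctsz, cathepsin Z, differed by -0.36 ± 0.08, and Atp6v0e, a subunit of the proton pump that acidifies lysosomes, by -0.37 ± 0.08. All 3 were separated between diets, and none passed the adjusted test. No lysosome list was tested, so these are 3 genes and not a group result. Cisd1, an iron-sulfur protein of the outer mitochondrial membrane, differed by -0.39 ± 0.09. Oit1, a secreted intestinal protein, differed by -0.54 ± 0.11. Bhlhe40, a clock-linked repressor, differed by -0.56 ± 0.13 (adjusted p = 0.3). Of the 19 clock genes measured it was the only one at an unadjusted p under 0.05. Over all genes 4.37% were lower at that p, so nothing is read from that count.

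On the higher side, the genes of smallest p after the called ones were Cpa1, a pancreatic carboxypeptidase (0.47 ± 0.08, adjusted p = 0.11), and Ccl5. Cpa1 was low in every pool, at 4.63 to 4.76 on control and 5.09 to 5.27 on quercetin. It was the only one of 13 exocrine pancreas markers at an unadjusted p under 0.05, against 4.36% higher among all genes. The median of that list was 0.08. Gsdme, a pore-forming gasdermin, was at 0.95 ± 0.18 (adjusted p = 0.17), Fgfbp1, a carrier of fibroblast growth factors, at 0.85 ± 0.17 (adjusted p = 0.191), and Smim10l1, a small membrane protein, at 0.78 ± 0.14 (adjusted p = 0.12). Gsdme and Smim10l1 each had another probe set, with differences of 0.16 and 0.03, so the 2 readings of each gene were far apart. Mep1a, a brush-border metalloprotease, was at 0.57 ± 0.12. The remaining ones were Myo19, a mitochondrial myosin (0.42 ± 0.09), Kdm2b, a histone demethylase (0.47 ± 0.11), and Rpl27a, a ribosomal protein (0.70 ± 0.14, with 0.08 for its other probe set). Over all 113 named genes, 36 had other probe sets, 58 in all, of which 50 had the same sign and 22 also an unadjusted p under 0.05.

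Segment markers differed between the diets more than most gene groups, and they are given first because other differences stand beside them. Like all lists here, they were chosen with earlier results of these data known. They hold Osr2, Mep1a and Ada, already named above for their small p. Their counts therefore describe these pools and are not a test. Distal small intestine markers were higher on quercetin: of 15 measured, 10 were higher and 2 lower at an unadjusted p under 0.05, against 4.36% higher and 4.37% lower among all genes, and their median was 0.34 against 0.02 for all genes. Osr2 is in this list and was the only member to pass the adjusted test. Proximal markers lay the other way: of 12 measured, none was higher and 4 were lower, with a median of -0.22. Without quercetin pool 3 the distal count was 5 and the proximal count 1, and without control pool 2 the proximal count was also 1. Without control pool 1 the distal count was 6.

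Fabp6 had the widest range of the distal genes. It was at 5.83, 6.32 and 10.72 in control pools 1, 2 and 3 and at 8.96, 11.25 and 12.18 in quercetin pools 1, 2 and 3. The groups overlapped, because control pool 3 exceeded quercetin pool 1. The difference was 3.17 ± 1.10 (9.02-fold, adjusted p = 0.43), the largest of any gene, and it did not pass the test. Fgf15, the ileal hormone that signals bile acid supply to the liver, was at 5.68, 5.40 and 5.50 on control and at 5.43, 6.33 and 6.43 on quercetin, so only quercetin pools 2 and 3 were high. Slc51a, a subunit of the bile acid exporter, differed by 0.32 ± 0.12 without overlap.

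Cubn, the cubilin receptor for vitamin B12 bound to intrinsic factor, was at 9.62, 9.95 and 9.89 on control and at 10.44, 10.38 and 10.49 on quercetin (0.62 ± 0.19, adjusted p = 0.374). The groups did not overlap, and the quercetin pools were within 0.11 of each other. Pyy, the peptide YY hormone of distal endocrine cells, differed by 0.64 ± 0.21 with overlap. Enpp3 and Mme, ectoenzymes also placed on the distal list, were the 2 members that were lower. Enpp3 was at 11.10, 11.57 and 10.31 on control and at 10.48, 9.82 and 9.60 on quercetin (-1.03 ± 0.27, adjusted p = 0.301), with overlap. Its other 4 probe sets were at -1.29, -1.12, -0.24 and 0.02. Those at -1.29 and -1.12 were separate between diets (adjusted p = 0.165 and 0.11). Mme, neprilysin, was at -0.45 ± 0.14. Among proximal genes beside Ada were Cyp2b10, a drug-metabolising cytochrome (-0.79 ± 0.30), Fabp1, the liver-type fatty acid carrier (-0.42 ± 0.18), and Khk, ketohexokinase, which starts fructose breakdown (-0.29 ± 0.12).

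The mean of a list in each pool showed how the pools lay. For distal markers, relative to the wild-type control mean, control pools 1, 2 and 3 were at -0.20, -0.03 and 0.22, and quercetin pools 1, 2 and 3 at 0.22, 0.44 and 0.61. For proximal markers the control pools were at 0.05, 0.06 and -0.10 and the quercetin pools at -0.08, -0.36 and -0.48. Control pool 3 and quercetin pool 1 were thus at about the same place on both lists, and the diets met there. The part of segment position in the other differences was not tested. Smooth muscle markers were highest in control pool 3 (0.55, against -0.30 and -0.25 in the other control pools and -0.21 to -0.01 on quercetin). Of those 13 genes, 0 had an unadjusted p under 0.05, against 4.36% higher and 4.37% lower among all genes.

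**Figure D2:**
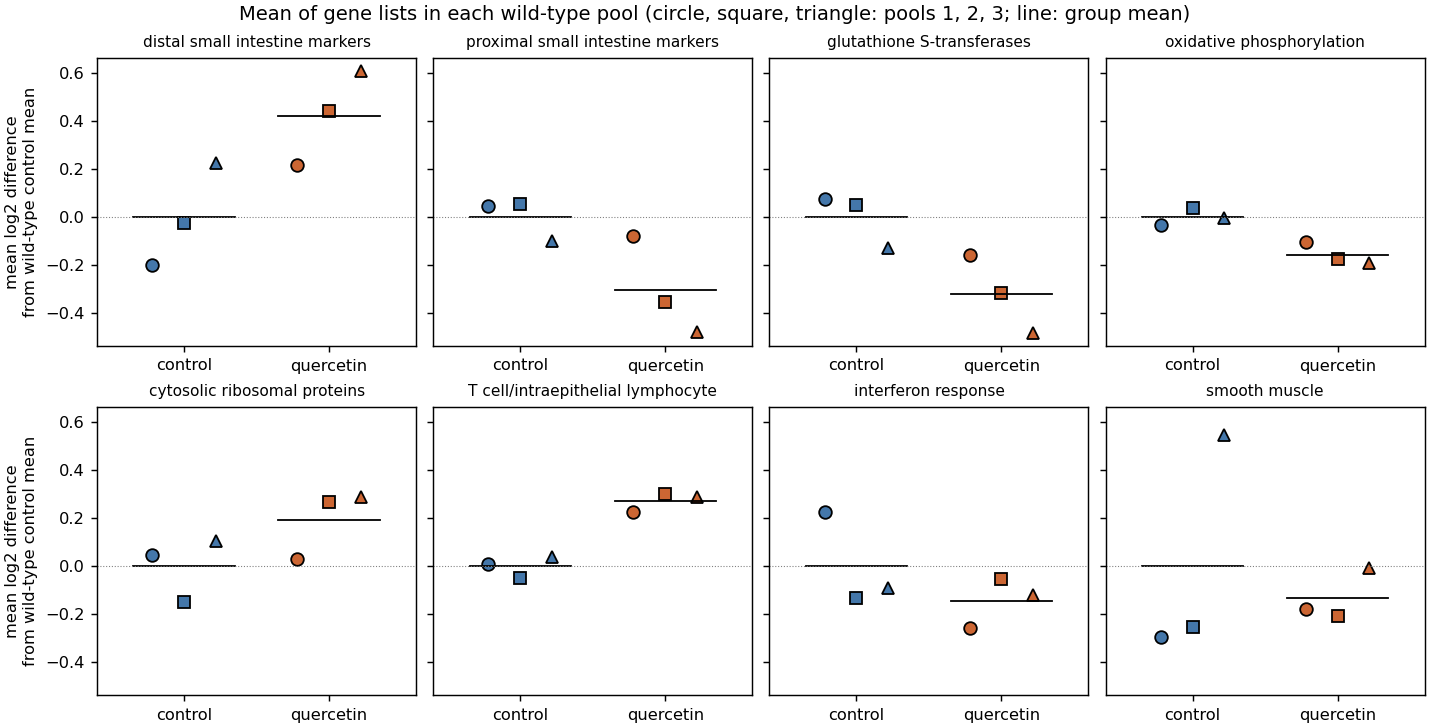
Mean of each gene list in the 6 wild-type pools (y axis: log2 difference from the mean of the 3 control pools; x axis: diet; circles, squares and triangles are pools 1, 2 and 3; lines are group means). Distal markers and glutathione S-transferases run in opposite directions, with control pool 3 and quercetin pool 1 nearest to each other, while the T cell list is at 0.22 to 0.30 in all quercetin pools and at -0.05 to 0.04 in the control pools.

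Glutathione S-transferases, which join glutathione to reactive compounds, were the enzyme family with the largest share of lower members. Of 20 measured, none was higher and 11 were lower at an unadjusted p under 0.05, against 4.36% and 4.37% of all genes. In 8 of the 20 every quercetin pool lay below every control pool, against 4.78% of all genes. The median was -0.25, and no member passed the adjusted test. The count of lower members ranged from 9 to 12 when single wild-type pools were left out. The pool means were 0.08, 0.05 and -0.13 on control and -0.16, -0.32 and -0.48 on quercetin, so that control pool 3 and quercetin pool 1 were again nearest to each other, as for the segment markers, whose part was not tested.

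Members came from several classes. Gstm2, of the mu class, was at 6.83, 6.63 and 6.38 on control and at 6.23, 6.14 and 5.76 on quercetin (-0.57 ± 0.15, adjusted p = 0.3), without overlap. Gstm6 differed by -0.76 ± 0.19, with overlap. Gsta4, of the alpha class, known for clearing the lipid peroxidation product hydroxynonenal, was at 8.84, 8.52 and 8.21 on control and at 8.16, 8.08 and 7.40 on quercetin (-0.64 ± 0.17). Gstk1, the mitochondrial and peroxisomal kappa enzyme, was at 8.91, 9.13 and 8.99 on control and at 8.73, 8.37 and 7.75 on quercetin (-0.73 ± 0.18, adjusted p = 0.3). In Gsta4 and Gstk1 the groups were separate, and quercetin pool 3 was the lowest pool in each of these 4 genes. Mu-class genes are similar in sequence, and their probe sets may share signal.

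Other drug-metabolising genes showed smaller or fewer differences. Among Cyp3a genes and their nuclear receptors, 1 of 10 was higher and 3 were lower at an unadjusted p under 0.05, with a median of -0.10. Over all genes, 4.36% were higher and 4.37% lower at that p. Cyp3a11, the main xenobiotic Cyp3a of mouse, was at 12.56, 12.53 and 12.30 on control and between 11.35 (pool 3) and 12.48 (pool 1) on quercetin (-0.52 ± 0.19, adjusted p = 0.454), with pool 1 overlapping the controls. Cyp3a25 differed by -0.56 ± 0.17 and Cyp3a13 by -0.37 ± 0.13. Hnf4a, the nuclear receptor that sets the enterocyte programme, differed by 0.25 ± 0.09, and by 0.13 as the mean over its probe sets. Of 30 genes of the Cyp2 and Cyp4 families, 1 was higher and 3 were lower, with a median of -0.01. Cyp2d22 was at -0.38 ± 0.10, Cyp2c65 at -0.65 ± 0.26 and Cyp2c54 at 0.23 ± 0.10. Carboxylesterases and epoxide hydrolases had 3 of 10 lower and a median of -0.24: Ces1f (-0.62 ± 0.16), Ces2g (-0.59 ± 0.27) and Ephx2 (-0.39 ± 0.15). The lower count of that list was 1 to 4 when single wild-type pools were left out.

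The AhR list was nearly level. The median of its 11 measured genes was -0.06. At an unadjusted p under 0.05, 1 was lower and none higher (4.37% and 4.36% of all genes). That gene was Cyp1a1, the cytochrome P450 that AhR induces most strongly. It was at 6.46, 7.16 and 6.96 on control and at 6.14, 6.02 and 6.24 on quercetin. All quercetin pools lay below all control pools, and the difference was -0.73 ± 0.15 (1.65-fold, adjusted p = 0.23). Other genes of the list differed by less. Nqo1, a quinone reductase, was at 0.00 ± 0.13. Ahrr, Tiparp and Cyp1b1 were at 0.05 ± 0.10, -0.07 ± 0.15 and -0.08 ± 0.13, and Cyp1a2 and Slc7a5 at 0.13 ± 0.10 and 0.18 ± 0.09. Ahr, the receptor itself, was at -0.13 ± 0.09, with all quercetin pools below all control pools. Of these genes, all but Nqo1 were chosen after their values were seen. The proximal promoter of Cyp1a1, chr9:57697363-57697662 on the plus strand, is shown because AhR targets were looked up as quercetin's best known receptor response. It holds 1 copy, in capitals, of the AhR-ARNT core GCGTG (searched on both strands, in 32.4% of all promoters).
Cyp1a1: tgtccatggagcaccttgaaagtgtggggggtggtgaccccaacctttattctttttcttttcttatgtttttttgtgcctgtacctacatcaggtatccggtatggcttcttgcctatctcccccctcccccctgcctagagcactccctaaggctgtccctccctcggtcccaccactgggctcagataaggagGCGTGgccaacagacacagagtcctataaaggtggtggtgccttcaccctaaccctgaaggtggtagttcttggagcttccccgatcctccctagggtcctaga
The known dioxin-responsive enhancer of Cyp1a1 lies farther upstream than this window reaches.

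Genes for splitting and taking up flavonol glucosides and for conjugating flavonoids had few members at an unadjusted p under 0.05. None of the 7 genes for splitting and taking up flavonol glucosides had such a p. Of these 7, 6 were below 0, against 5221 of the 12393 genes, and their median was -0.18. Lct, the lactase that splits quercetin glucosides (chosen after its value was seen), differed by -0.22 ± 0.19. Of 16 conjugation genes, none was higher and 2 were lower at an unadjusted p under 0.05, against 4.36% and 4.37% of all genes. The 2 lower ones were Ugdh and Papss2, enzymes that make the donors of glucuronate and sulfate. They were at -0.38 ± 0.09 (adjusted p = 0.3) and -0.71 ± 0.19 (adjusted p = 0.302). Neither passed the adjusted test, and both were chosen after their values were seen. The transferases themselves had no member at an unadjusted p under 0.05. Of the pumps that return conjugates to the lumen, Abcc2 was at -0.48 ± 0.23, Abcg2 at 0.21 ± 0.13 and Abcb1a at -0.21 ± 0.17, none with an unadjusted p under 0.05.

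NRF2 and glutathione genes had 1 of 26 higher and 6 lower at an unadjusted p under 0.05, with a median of -0.08. Over all genes, 4.36% were higher and 4.37% lower at that p. Me1, malic enzyme, a source of NADPH, was at -0.66 ± 0.22, with control pool 1 (7.12) within the range of the quercetin pools (6.88 to 7.38). The selenium-dependent glutathione peroxidases Gpx2 (-0.45 ± 0.17), Gpx3 (-0.40 ± 0.14) and Gpx4 (-0.30 ± 0.11) all overlapped between diets. Without control pool 2 the lower count was 1. Heat shock genes had 5 of 22 lower, none higher, and a median of -0.13. Dnaja1, a co-chaperone of HSP70, was at -0.40 ± 0.12 and Bag3, its nucleotide exchange factor, at -0.22 ± 0.08, both without overlap. Chordc1 (-0.55 ± 0.20) and Dnajb1 (-0.24 ± 0.09), also co-chaperones, overlapped. Hspa1b, the inducible HSP70 itself, was at 6.52, 7.61 and 6.90 on control and at 6.18, 7.01 and 6.35 on quercetin (-0.50 ± 0.32, adjusted p = 0.678). The diets overlapped. Its other 2 probe sets were at -0.89 ± 0.43 and -1.02 ± 0.46, larger differences that also overlapped and did not pass the adjusted test. Hspb1, a small heat shock protein, differed by -0.04 ± 0.13. The heat shock count was 2 without control pool 2 or without quercetin pool 3, and 8 without control pool 1 or quercetin pool 2.

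**Figure D3:**
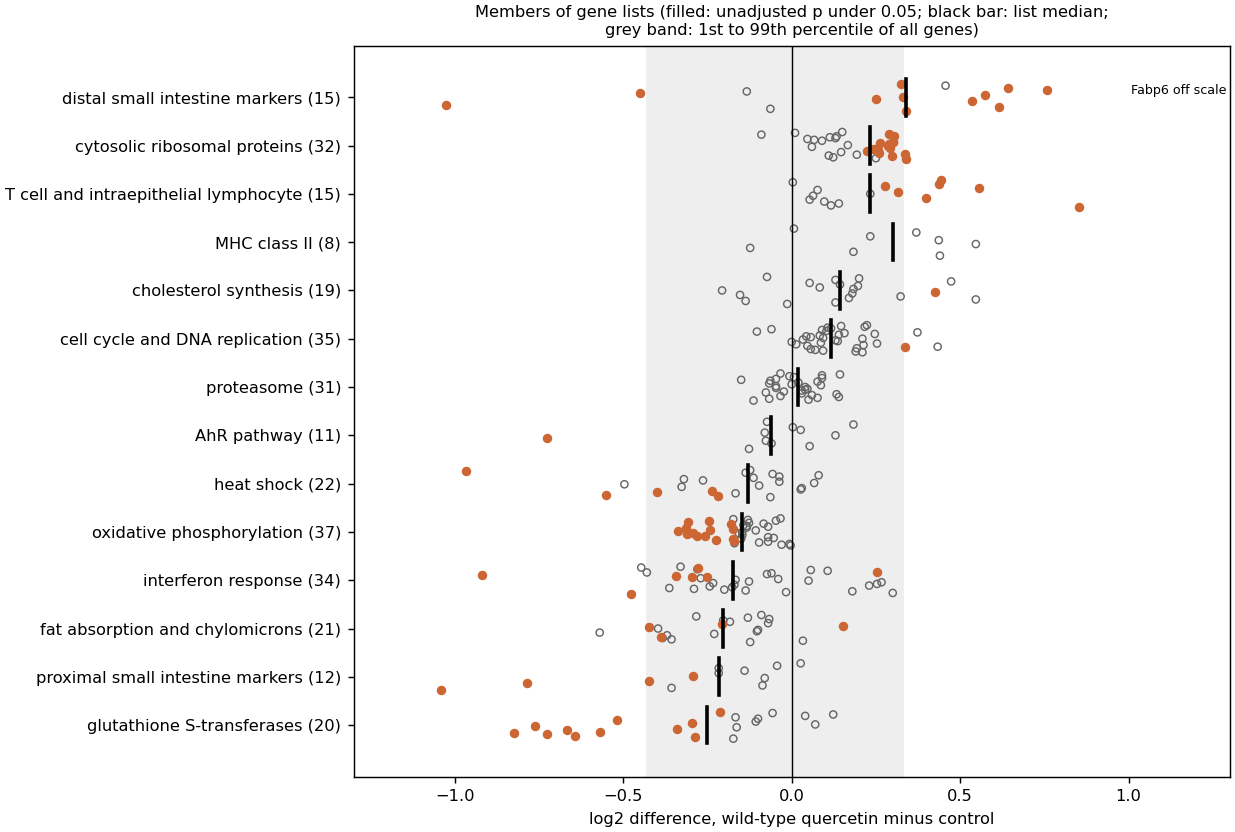
Log2 difference (x axis, wild-type quercetin minus control) of each measured member of 14 gene lists (y axis, number of genes in brackets). Filled points had an unadjusted p under 0.05, black bars are list medians, and the grey band spans the 1st to 99th percentile of all genes, -0.43 to 0.33. Distal markers have the highest median, 0.34, and glutathione S-transferases the lowest, -0.25, of the lists drawn, all 37 oxidative phosphorylation genes are below 0, and Fabp6, at 3.17, is beyond the axis.

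Oxidative phosphorylation genes, which encode subunits of the respiratory chain, were shifted by little but in 1 direction. All 37 measured were below 0, against 5221 of the 12393 genes, and they ranged from -0.34 to just below 0 with a median of -0.15. At an unadjusted p under 0.05, 14 were lower (4.37% of all genes), and in 14 every quercetin pool lay below every control pool (4.78% of all genes). Ndufb3, a complex I subunit, was at 9.13, 9.31 and 9.42 on control and at 8.98, 9.03 and 8.84 on quercetin (-0.34 ± 0.09, adjusted p = 0.301). Ndufa5 (-0.29 ± 0.08), Ndufc1 (-0.31 ± 0.10) and Ndufb8 (-0.24 ± 0.08), also of complex I, were likewise separate. The lower count was 6 without control pool 2 and 8 without quercetin pool 2 or quercetin pool 3. After centring each array on its median it was 21.

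Cytosolic ribosomal protein genes lay the other way. Of 32 measured, 31 were above 0, against 56.8% of all genes, and the median was 0.23. At an unadjusted p under 0.05, 15 were higher (4.36% of all genes) and none was lower. Rpl10a was at 10.47, 10.23 and 10.30 on control and at 10.47, 10.78 and 10.77 on quercetin (0.34 ± 0.10, adjusted p = 0.37). Quercetin pool 1 equalled the highest control pool, and pools 2 and 3 were higher. Rps2 was at 11.51, 11.24 and 11.49 on control and at 11.58, 11.77 and 11.79 on quercetin (0.30 ± 0.10), and Rpl19 and Rps15 differed by 0.30 ± 0.09 and 0.29 ± 0.10. In 4 of the 32 every quercetin pool lay above every control pool, a larger share than the 6.91% of all genes, while the others overlapped. The count of 15 became 2 without control pool 2, 4 without quercetin pool 3, 7 without quercetin pool 2 and 9 after centring on the array median. Ribosomal protein genes have many processed pseudogenes, and their probe sets can share signal.

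Genes of T cells and intraepithelial lymphocytes, the T cells that sit between enterocytes, lay mostly higher on quercetin. All 15 measured were above 0, against 56.8% of all genes, and the median was 0.23. At an unadjusted p under 0.05, 7 were higher (4.36% of all genes) and none was lower. Ccl5, the chemokine RANTES made by cytotoxic T cells, was at 9.65, 9.26 and 9.87 on control and at 10.42, 10.47 and 10.45 on quercetin (0.85 ± 0.15, 1.81-fold, adjusted p = 0.112). Gzma, the protease granzyme A, was at 9.96, 9.99 and 9.79 on control and at 10.47, 10.36 and 10.58 on quercetin (0.56 ± 0.12). Both genes were separate between diets, and the quercetin pools of Ccl5 were within 0.05 of each other. Nkg7, a granule protein of cytotoxic cells, differed by 0.44 ± 0.10. Itgae, the CD103 integrin that holds these cells in the epithelium, was at 6.81, 6.78 and 6.71 on control and at 7.13, 7.31 and 7.17 on quercetin (0.44 ± 0.12, adjusted p = 0.345). The higher count stayed between 5 and 7 when single wild-type pools were left out, and was 5 after median centring. Markers of B and plasma cells, macrophages and dendritic cells, mast cells and nerve had 0 members at an unadjusted p under 0.05.

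Interferon-response genes were lower in part. Of 34 measured, 6 were lower and 1 higher at an unadjusted p under 0.05 (4.37% and 4.36% of all genes). The median was -0.17. Oasl2, an antiviral protein related to the oligoadenylate synthetases, was at 8.99, 8.74 and 8.70 on control and at 8.09, 7.78 and 7.80 on quercetin (-0.92 ± 0.16, 1.89-fold, adjusted p = 0.124). The diets were 0.61 apart. Bst2, tetherin, which holds budding viruses at the cell surface, was at 6.30, 6.00 and 6.38 on control and at 5.69, 5.89 and 5.67 on quercetin (-0.48 ± 0.11, adjusted p = 0.3). Oasl1, a regulator of the interferon response, differed by -0.34 ± 0.14, and Ube2l6, the conjugating enzyme for ISG15, by -0.28 ± 0.09. The lower count was 3 without control pool 1 or without quercetin pool 1. The promoter of Bst2, chr8:71537423-71537722 on the minus strand, is shown as an example of the list's shared element. Capitals mark 2 overlapping matches to the core of the interferon-stimulated response element, taken as GAAA, any 2 bases and GAAA again, and searched on both strands.
Bst2: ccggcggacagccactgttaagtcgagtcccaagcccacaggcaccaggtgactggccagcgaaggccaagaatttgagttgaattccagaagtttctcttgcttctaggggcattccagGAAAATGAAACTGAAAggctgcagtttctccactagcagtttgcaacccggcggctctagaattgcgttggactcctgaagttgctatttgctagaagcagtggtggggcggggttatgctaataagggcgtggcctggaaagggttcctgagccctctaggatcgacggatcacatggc
Such a match was found in 15 of the 28 interferon-response genes with a promoter in the table (53.6%), against 3.99% of all genes with a promoter, and in 2 of the 5 lower members that had one.

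MHC class II genes, which present antigen and are induced in epithelium by interferon gamma, had a median of 0.30 with none of 8 at an unadjusted p under 0.05. Cd74, the invariant chain (chosen after its values were seen), was at 11.18, 10.97 and 11.59 on control and at 11.51, 11.63 and 11.92 on quercetin, so control pool 3 overlapped. Inflammatory genes had 2 of 22 higher and 1 lower at an unadjusted p under 0.05, against 4.36% and 4.37% of all genes. Tnfaip3, a brake on NF-kB, differed by 0.48 ± 0.15, and Il18, an epithelial cytokine, by -0.65 ± 0.20, both with overlap. Saa1, an acute phase protein, was at 5.82, 5.08 and 5.52 on control and at 5.94, 5.92 and 9.21 on quercetin. Its difference of 1.55 ± 0.71 came mainly from quercetin pool 3.

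Fatty acid oxidation genes, many of them targets of PPAR-alpha, had a median of -0.06. At an unadjusted p under 0.05, 1 of 33 was higher and 7 were lower, against 4.36% and 4.37% of all genes. Acaa1b, a peroxisomal thiolase, was at 8.45, 8.77 and 8.55 on control and at 8.34, 7.26 and 6.80 on quercetin (-1.12 ± 0.27, 2.18-fold, adjusted p = 0.3). Quercetin pool 1 was close to the controls, while pools 2 and 3 were far below. Ehhadh, the peroxisomal bifunctional enzyme, differed by -0.38 ± 0.09 and Pex11a, a peroxisome division protein, by -0.35 ± 0.13, both without overlap. Crot, which moves shortened acyl groups out of peroxisomes, was at -0.42 ± 0.15, and Acadl, a mitochondrial dehydrogenase, at -0.25 ± 0.15. The lower count was 2 without quercetin pool 3, and 4 without control pool 2 or quercetin pool 2.

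Of 21 genes of fat absorption, 19 lay below 0 (5221 of all 12393 genes), with a median of -0.20. At an unadjusted p under 0.05, 1 was higher and 3 were lower, against 4.36% and 4.37% of all genes. Apobec1, the editor of apolipoprotein B mRNA, was at 8.20, 8.26 and 8.23 on control and at 7.89, 7.70 and 7.94 on quercetin (-0.39 ± 0.10, adjusted p = 0.3), without overlap. Mogat2, which rebuilds triglyceride, was at -0.21 ± 0.09. Fabp2 was at 0.15 ± 0.07, while Fabp1, on both this list and the proximal one, was lower. Cholesterol synthesis genes had 1 of 19 higher and a median of 0.14. Hmgcs1, an early enzyme of that pathway, differed by 0.32 ± 0.32 with wide overlap.

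Brush-border enzymes and carriers were mixed. Treh, trehalase, was at -0.72 ± 0.18 with overlap. Slc46a1, the proton-coupled folate carrier of the proximal intestine, was at 8.04, 7.93 and 6.84 on control and at 7.06, 6.38 and 6.38 on quercetin (-1.0 ± 0.34, adjusted p = 0.426). Control pool 3 overlapped quercetin pool 1 in both genes. Slc39a4, the zinc importer, was at -0.36 ± 0.13. Slc1a1, a glutamate carrier, was at 0.47 ± 0.14, and its other 2 probe sets were at 0.79 ± 0.17 and 0.72 ± 0.15, all 3 without overlap and none past the adjusted test. Slc34a2, the intestinal phosphate carrier, was at 0.56 ± 0.17, with quercetin pools at 10.94, 11.18 and 11.08 against 10.59, 10.21 and 10.73. Among 19 carriers, 2 were higher and 2 lower at an unadjusted p under 0.05, against 4.36% and 4.37% of all genes.

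Glycolysis and fructose genes had 3 of 16 lower: Khk, Pkm, pyruvate kinase (-0.29 ± 0.12), and Ldha, lactate dehydrogenase (-0.19 ± 0.07). At an unadjusted p under 0.05, 4.36% of all genes were higher and 4.37% lower. Of 11 arginine and glutamine genes, Oat, ornithine aminotransferase (0.36 ± 0.13), and Aldh18a1, which makes its glutamate-derived substrate (0.37 ± 0.14), were higher, and Arg2, arginase 2 (-0.28 ± 0.11), was lower, all at an unadjusted p under 0.05 and none past the adjusted test. The other 4 probe sets of Aldh18a1 lay between -0.04 and 0.12, and the mean over its probe sets was 0.08. Junction genes had 2 of 19 higher and 2 lower. Cldn15, a channel claudin of the intestine, was at -0.28 ± 0.09, and Cldn2, a channel claudin of crypts, at 0.58 ± 0.27, with 8.67 in quercetin pool 3 and 7.10 to 7.84 in the other 5 wild-type pools. Tjp3, a tight junction scaffold, was at 0.26 ± 0.10 and Dsg2, a desmosomal cadherin, at -0.25 ± 0.11. The other 5 probe sets of Dsg2 ranged from -0.10 to 0.24, and the mean over its probe sets was 0.0039.

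Crypt and Wnt genes had 2 of 16 higher, Axin2, a Wnt target (0.30 ± 0.12), and Cdx1, an intestinal homeobox factor (0.38 ± 0.14), and 1 lower, Myc (-0.28 ± 0.13). All 3 overlapped between diets. At an unadjusted p under 0.05, 4.36% of all genes were higher and 4.37% lower. Of 35 cell cycle genes, 32 lay above 0 (56.8% of all genes), with a median of 0.12, and 1 was higher. Among hormones, Cck, the cholecystokinin of proximal endocrine cells, was at 6.07, 5.59 and 5.31 on control and at 5.27, 5.22 and 4.82 on quercetin (-0.55 ± 0.17, adjusted p = 0.374). Nts, neurotensin, of distal cells, was at 0.43 ± 0.15 with overlap. Fos, an immediate early gene, was at -0.30 ± 0.19. Paneth cell markers (6 measured, median 0.22) and goblet cell markers (11 measured, median 0.06) had 0 and 1 members at an unadjusted p under 0.05. Proteasome genes had 0 of 31, with a median of 0.02.

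The same diet was given to POR-null mice, so the wild-type difference could be set beside theirs. There no probe set passed the adjusted test, and 910 (4.02%) had an unadjusted p under 0.05. By gene, 2.01% were higher and 2.09% lower at that p. The interaction, which tests whether the diet difference itself differed between genotypes, called 0 probe sets (1141, or 5.04%, at an unadjusted p under 0.05 in limma), so no gene's diet difference was shown to depend on genotype. Among the 25 genes called or of smallest p in wild-type mice, the POR-null difference had the same sign in 16, against 54.1% of all genes. It was so in 7 of the 13 higher and 9 of the 12 lower. The interaction had an unadjusted p under 0.05 in 20 of the 25, against 5.22% of all genes, but these genes were chosen on the wild-type contrast, which is part of the interaction, and nothing is read from that count.

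The called genes differed in their POR-null values. Gm9222 was at 5.34, 5.33 and 5.56 on control and at 6.14, 5.78 and 6.20 on quercetin in POR-null pools, a difference of 0.63 ± 0.12, and the interaction was 0.32 (adjusted p = 0.956). Ckb was at 9.20, 9.19 and 9.16 on control and at 8.76, 8.93 and 8.91 on quercetin (-0.32 ± 0.12). Both genes were separate between diets in each genotype. Osr2 was at 7.67, 7.86 and 7.46 on control and at 7.73, 7.49 and 7.39 on quercetin in POR-null pools (-0.13 ± 0.11), with an interaction of 0.88 (adjusted p = 0.651). Its POR-null pools on either diet were thus above all wild-type control pools. Oit1 was at -0.44 ± 0.11 in POR-null mice beside -0.54 ± 0.11 in wild-type mice, with all POR-null quercetin pools (8.36 to 8.51) below all POR-null control pools (8.80 to 9.07).

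Several genes were near 0 or opposite in POR-null mice. Ada differed by 0.26 ± 0.18 there, with control pools at 11.70, 12.11 and 12.24, below the 2 higher wild-type control pools. Fabp6 differed by -1.27 ± 1.10 and Cubn by -0.42 ± 0.19. Ccl5 differed by -0.07 ± 0.15, Oasl2 by 0.11 ± 0.16 and Cyp1a1 by 0.08 ± 0.15. In Cyp1a1 the POR-null control pools, at 6.20, 6.38 and 6.01, overlapped the wild-type quercetin pools, and in Oasl2 the same held, at 8.03, 8.27 and 7.56. In Ccl5 the POR-null control pools, at 10.19, 10.47 and 10.14, were above all wild-type control pools. Any comparison of the wild-type diet difference with the genotype difference shares the 3 wild-type control pools, so these levels are given side by side only.

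**Figure D4:**
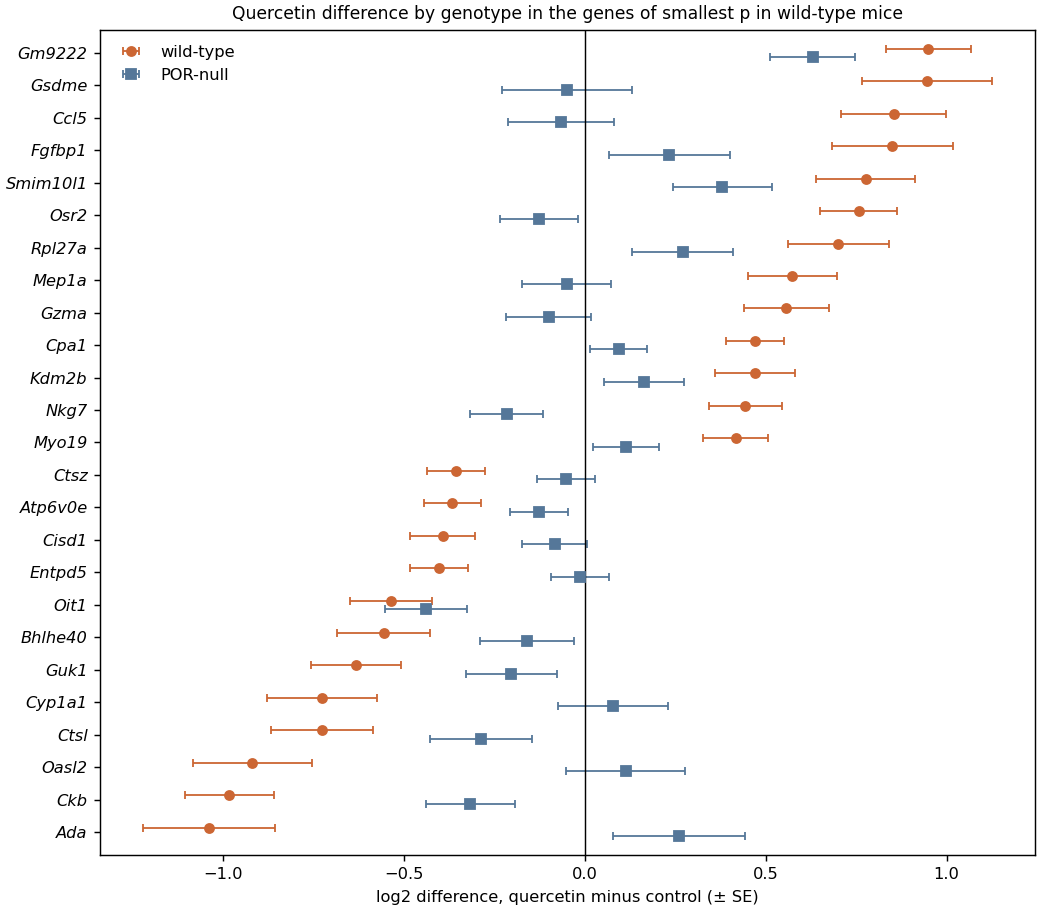
Log2 difference, quercetin minus control, ± SE (x axis) in wild-type (circles) and POR-null (squares) mice, 3 pools a group, for the 25 genes called or of smallest p in wild-type mice (y axis). Gm9222 and Oit1 lie on the same side in both genotypes at 0.63 and -0.44 in POR-null mice, while Ada is at -1.04 in wild-type and 0.26 in POR-null mice; no interaction passed the adjusted test.

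Several lists described above had medians nearer to 0 or of opposite sign in POR-null mice. The medians were -0.12 for distal markers (0.34 in wild-type mice), -0.02 for proximal markers (-0.22), -0.01 for glutathione S-transferases (-0.25) and -0.07 for the T cell list (0.23). In the ribosomal list the POR-null median was 0.08 beside 0.23, and in oxidative phosphorylation -0.07 beside -0.15, with 33 of the 37 genes below 0 in POR-null mice. MHC class II genes were at -0.46 beside 0.30, with all 8 below 0, and interferon-response genes at 0.11 beside -0.17. The fatty acid oxidation median was -0.13 in POR-null beside -0.06 in wild-type mice, and Paneth cell markers were at 0.31 beside 0.22. Members with an interaction at an unadjusted p under 0.05 numbered 8 of 20 glutathione S-transferases, 7 of 15 distal markers, 6 of 15 T cell genes, 8 of 34 interferon-response genes and 4 of 8 MHC class II genes, against 5.22% of all genes. In the lists of Paneth cell, proteasome and cell cycle genes there were 0. Lists picked for their wild-type difference share that difference with the interaction, so nothing is read from these counts. None of these members passed the adjusted test for the interaction.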

How the data were processed

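Total RNA from 12 pools of jejunal epithelium was hybridised to 12 Affymetrix 430A arrays. The authors deposited log2 values per probe set. Per the submitters' processing notes, MAS5 and RMA were used; which step each served is not stated there. The array number limits the precision.

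The 64 control probe sets were left out and 22626 tested, without further normalization or filter. limma 3.58.1 (R 4.3.3, lmFit and eBayes) fitted the 4 group means over all 12 arrays (8 residual and 6.75 prior degrees of freedom), with Benjamini-Hochberg adjustment over all probe sets; a call is an adjusted p under 0.05. Each test was two-sided. The test was tried on simulated data. Of the probe sets, 20380 had 1 gene symbol, 691 several and 1555 none. A gene was read from its probe set of highest mean, avoiding the suffixes _x_at and _s_at where another existed.

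The comparison and the 52 gene lists (951 genes, 812 measured) were chosen with earlier results of these data known. Named were the called genes filled up by p to 12 higher and 12 lower without gene models; for each list with 3 or more members at an unadjusted p under 0.05, up to 4 of smallest p; and 15 looked up, of which 13 were measured. Lists are described by counts and medians and were not tested. Pools come from different mice, 3 to a pool. The labels do not say what a replicate number marks, so the main fit did not pair pools by it. Deviations of same-numbered wild-type control and quercetin pools correlated at 0.008, -0.014 and 0.021 over all probe sets. Such a value over all probe sets cannot show whether some genes were paired. Alternatives covered scaling, filter, probe set summary, variance model, array weights, replicate block and leaving out each pool. Promoters are 300 bases from RefSeq (GRCm38.p6). Plots used matplotlib.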

Additional observations from a re-analysis of the deposited data

How the results depend on the processing

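The count of called probe sets in wild-type mice was 3. It was 3 after quantile normalization and with 1 probe set per gene, 2 after median centring, in the 11310 brighter probe sets and with the 6 wild-type arrays alone, and 4 with a trended robust variance, with array weights or at an adjusted p under 0.1. It was 5 with the mean of a gene's probe sets and 8 with the replicate block. Without single pools it ranged from 0 to 23, and the interaction from 0 to 2, the 2 without wild-type control pool 1. Osr2 was not called after median centring, nor Ckb in the 6 wild-type arrays alone. Gm9222 was not among the brighter probe sets, so it was not tested there. Centring moved the median of all probe sets from 0.02 to -0.01.

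Of 2477 values of the 113 named genes under the alternatives, 2435 kept direction and side of the threshold, 18 newly passed it, 14 no longer did and 10 reversed; the cause was not tested. Nqo1 was -0.0272 after quantile normalization, -0.0333 after median centring, -0.0321 with array weights, and -0.0833 to 0.1067 without single pools. Hspb1 was 0.0086 with array weights and -0.1117 to 0.07 without single pools. Dsg2, at -0.25 in the probe set used, was 0.0039 with the mean of its probe sets. Leaving the segment markers out of the other lists, an alternative chosen after seeing the data, removed all 3 higher members of the sterol and bile acid list. Those 3, Fabp6, Fgf15 and Slc51a, are on the distal list, so that outcome was fixed by the overlap of the lists. The glutathione S-transferase, oxidative phosphorylation, ribosomal and T cell lists hold 0 segment markers and did not change.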

Other observations

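Another probe set, which reads Scoc, a Golgi coiled-coil protein, had an adjusted p under 0.1. It was lower 1.67-fold on quercetin in wild-type mice without overlap of pools. Its values were low, at 4.38 to 4.54 on control and 3.57 to 3.87 on quercetin, below every array median (5.94 or more). Despite this small p, Scoc was not among the genes named by p, so the gene was read from a different probe set. The difference of that other probe set is not given here. Some genes outside the naming rule, chosen after their values were seen, were separate between the diets. Abcc3, a basolateral exporter of conjugates, was at 8.43, 8.44 and 8.32 on control and at 7.79, 8.10 and 8.17 on quercetin (-0.38 ± 0.10, adjusted p = 0.324). Hif1a, the oxygen-regulated transcription factor, was at 7.94, 8.06 and 8.11 on control and at 7.83, 7.64 and 7.32 on quercetin (-0.44 ± 0.11, adjusted p = 0.3). Lss, lanosterol synthase of cholesterol synthesis, was at 5.58, 5.34 and 5.34 on control and at 5.77, 5.98 and 5.79 on quercetin (0.43 ± 0.10, adjusted p = 0.3). Trpm5, the cation channel of tuft cells, differed by -0.42 ± 0.11 (adjusted p = 0.3). It was the only one of 6 tuft cell markers at an unadjusted p under 0.05, against 4.37% lower among all genes. Adjusted p are from limma over all probe sets, and none of these genes passed.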
